A study of Rattus norvegicus with 3 samples.

Results

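The axon guidance ligands and receptors are the secreted and membrane-bound signals that steer growing axons, together with the cell surface proteins that read them. They were taken as every row of the mRNA gene table whose symbol belongs to the semaphorins, plexins, neuropilins, ephrins, Eph receptors, Slits, Robo receptors, netrins, Unc5 receptors or is Dcc. This gave 71 genes of 22608, in 12 families, of which 60 had a mean level of at least 1 CPM (the count per 1000000 counts of its library) over the libraries. Counts of these genes made up 0.303% of the sham library, 0.416% of the model library and 0.385% of the AKBA library.

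Total RNA of sciatic nerve from male Sprague-Dawley (SD) rats was sequenced in 3 libraries, 1 for each group, at day 30. In the sham group the nerve was exposed and not damaged. In the model group, which the labels call only control, the nerve had been squeezed with vascular forceps, and in the AKBA group animals of the injury model also received AKBA, a boswellic acid derivative found in Boswellia resin. The dose, the age of the animals at surgery and whether a library came from 1 animal or several are not stated in the sources used here. The model library is read as injured and untreated from its title letter and the series' description of its groups.

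Guidance cues act on the growth cone, the moving tip of an axon, by attracting or repelling it through receptors that remodel actin and microtubules. In peripheral nerve the same families also act between Schwann cells, fibroblasts, vessels and immune cells, and the neuron cell bodies lie outside the nerve. Semaphorins signal through plexins, with neuropilins as co-receptors for most of class 3. Ephrins bind Eph receptor tyrosine kinases on the neighbouring cell, Slits bind Robo receptors, and netrins such as netrin-1 bind Dcc, neogenin and the Unc5 receptors.

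Total counts came to 74184217 for sham, 89505656 for model and 90071899 for AKBA. Where 3 values follow a gene, the first is sham, the second model and the third AKBA, and none has a replicate, so every comparison is of libraries and carries no p-value. A gene is called higher or lower where the ratio of (CPM + 1) reached 2-fold. Folds are plain ratios of CPM, and the range beside a fold is its exact 95% counting interval, which leaves out the spread between animals. Ribosomal RNA and mitochondrial rows took 11.5%, 4.20% and 7.59% of the counts, and the median log2 ratio of all 14427 genes past the filter was 0.18 when model was set against sham, 0.16 when AKBA was set against sham and -0.04 between the crushed libraries. CPM is not corrected for gene length, so levels are compared between libraries and not between genes.

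The tissue label was checked against marker lists. All 12 genes of the myelinating Schwann cell list were detected in each library, with a summed level of 17903, 42596 and 37760.5 CPM, and of 5709.7, 7563 and 7278 CPM without the 2 genes of highest mean level. The nuclear neuron marker Rbfox3 had 2, 0 and 2 counts. Markers of neighbouring tissues differed between libraries too. Summed levels were 8127, 4840.1 and 2528 CPM for 10 fat cell genes (1877, 1861 and 1051 CPM without the 2 highest, Fabp4 and Adipoq), and 481, 998 and 6720.2 CPM for 12 skeletal muscle genes. The fat cell list had a median log2 ratio of -0.72 in model against sham, with 1 of 10 above 0. That gene, Cfd, stood at 555, 1031 and 595 CPM. The part of the cells marked by these lists in the results below was not tested, and in such bulk RNA more cells of a type and more RNA per cell cannot be told apart.

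In the model library 13 of the 60 guidance genes were at least 2-fold higher than in sham and 1 was lower. The share of all genes called in the same comparison was 4.52% higher and 1.31% lower. Ratios ran from -1.04 to 1.80 on the log2 scale, with a median of 0.33, which was 0.15 above that of all genes (0.06 with a pseudocount of 5 CPM), and 36 of 60 ratios lay above the median of all genes. TMM scaling, a library size correction that moved the median of all genes by -0.20, gave 8 guidance genes higher and 3 lower, where all genes split 376 to 293 in place of 652 to 189. Counting intervals excluded a ratio of 1 for 54 of the 60. The same share was not computed for all genes, so this count is not read as particular to guidance genes.

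AKBA against sham gave 12 guidance genes higher and 1 lower, where 5.83% of all genes were higher and 2.08% lower. Their median was 0.25 above that of all genes. All genes split 841 to 300 there, and 579 to 435 with TMM scaling, under which 10 guidance genes were higher and 1 lower. AKBA against model gave 3 guidance genes higher and 0 lower, with 2.69% and 1.37% of all genes called, and a median 0.02 above that of all genes. The comparisons share libraries, so they are not independent. Across them, 20 of the 60 passed 2-fold at least once (33.3%), against 11.7% of all genes.

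**Figure D1:**
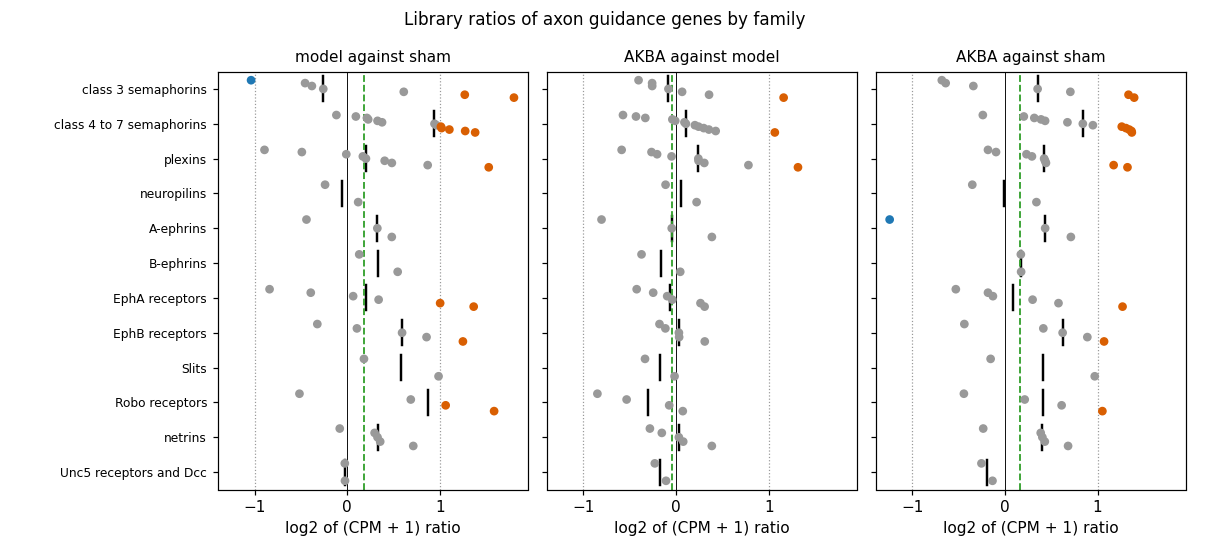
Log2 ratio of (CPM + 1) for each guidance gene past the level filter, by family, in the 3 comparisons. Points are genes (orange at least 2-fold higher, blue at least 2-fold lower, grey neither), black bars family medians, the green dashed line the median of all 14427 genes and dotted lines 2-fold. Orange points lie mostly in the semaphorins in model against sham and AKBA against sham, and 3 are seen in AKBA against model.

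The largest group of called genes was at least 2-fold higher in both crushed nerves than in sham. It held 10 of the 60 (16.7%, against 2.37% of all genes). With TMM scaling it held 5 (8.33%, against 1.23% of all genes), and 5 also with upper quartile or median-of-ratios scaling or a pseudocount of 5 CPM, in each case Sema3b, Sema3g, Sema7a, Plxnb1 and Epha2. The 10 as first counted were the ligands Sema3b, Sema3g, Sema4c, Sema4f, Sema6c and Sema7a and the receptors Plxnb1, Epha2, Ephb6 and Robo4. Folds over sham were 2.05 to 3.67 in model and 2.15 to 3.54 in AKBA. Between the 2 crushed libraries these genes differed by 0.671-fold to 1.34-fold, and 4 of the 10 were above 0 on the log2 scale in AKBA. No guidance gene was at least 2-fold lower in both crushed libraries, where 80 of all genes (0.555%) were.

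Promoters of 4 of these 10 genes are shown because they shared the shift, taking the 4 highest by the smaller of each gene's model and AKBA ratios over sham, among genes with an entry in the RefSeq promoter table of build GRCr8. Each is the 250 bases before the annotated start, 5′ to 3′ on the gene's strand, in lower case. Capitals mark matches, on either strand, to the motifs described after them. A match that overlaps an earlier match of the same motif is not marked in full.

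Sema3g (GRCr8, chr16:6419775-6420024, + strand): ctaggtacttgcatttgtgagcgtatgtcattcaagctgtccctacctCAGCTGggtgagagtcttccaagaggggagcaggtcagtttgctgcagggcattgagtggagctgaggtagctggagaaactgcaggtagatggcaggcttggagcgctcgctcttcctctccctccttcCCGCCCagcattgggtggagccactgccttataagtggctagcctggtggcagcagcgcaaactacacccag
Sema7a (GRCr8, chr8:67244068-67244317, + strand): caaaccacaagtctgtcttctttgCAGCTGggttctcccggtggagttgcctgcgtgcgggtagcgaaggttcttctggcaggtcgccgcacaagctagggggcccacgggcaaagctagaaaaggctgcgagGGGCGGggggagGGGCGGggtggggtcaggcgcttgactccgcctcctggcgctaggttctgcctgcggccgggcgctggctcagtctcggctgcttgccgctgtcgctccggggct
Plxnb1 (GRCr8, chr8:118622911-118623160, + strand): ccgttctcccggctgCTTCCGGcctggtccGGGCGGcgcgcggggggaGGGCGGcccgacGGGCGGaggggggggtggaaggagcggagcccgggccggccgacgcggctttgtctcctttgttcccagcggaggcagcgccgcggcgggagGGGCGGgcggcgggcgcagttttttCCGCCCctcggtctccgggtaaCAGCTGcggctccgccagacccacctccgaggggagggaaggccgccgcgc
Epha2 (GRCr8, chr5:158888379-158888628, + strand): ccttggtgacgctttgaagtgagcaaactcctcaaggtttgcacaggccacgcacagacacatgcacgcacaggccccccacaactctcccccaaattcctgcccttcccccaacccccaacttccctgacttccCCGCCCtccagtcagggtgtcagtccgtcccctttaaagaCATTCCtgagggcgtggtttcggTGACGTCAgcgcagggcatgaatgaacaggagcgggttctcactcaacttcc

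Of 7 motifs searched on both strands in the 250 bases before the start, 5 matched at least 1 of the 9 promoters found for the 10 genes. The table has no promoter for Sema3b. The E-box CAGCTG, a palindrome read by basic helix-loop-helix factors, stood in 6 of the 9, in 12 of 49 promoters found for 48 guidance genes past the filter and in 11.97% of all 33469 promoters. Its genes were Sema3g, Sema6c, Sema7a, Plxnb1, Ephb6 and Robo4. The GC box GGGCGG, the Sp1 site, stood in 5 of 9, in 24 of 49 and in 30.5% of all, and may overlap itself in GC-rich sequence. The TEAD site GGAATG stood in 2 (Epha2 and Sema4f; 12.1% of all), and the cyclic AMP response element TGACGTCA in 1 (Epha2; 1.59% of all). The ETS site CCGGAAG stood in 1 (Plxnb1; 7.27% of all). Neither the AP-1 site TGANTCA (6.34% of all) nor the TATA box TATAAA (12.9% of all) was found in the 9. The windows were not matched for base composition, which ran from 56.8% to 78% G and C in the 4 shown.

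Class 3 semaphorins are secreted and mostly repel axons through neuropilin and plexin-A complexes. Of the 7 measured, 2 were called higher and 1 lower in model against sham, where 4.52% and 1.31% of all genes were. Sema3b, whose product signals mainly through neuropilin-2, stood at 251, 605 and 633 CPM. This was 2.41-fold higher in model (2.37 to 2.45) and 2.52-fold higher in AKBA (2.48 to 2.57) than in sham, so both crushed libraries lay well above sham and near each other. Sema3g, known from arterial endothelium, stood at 13.0, 47.8 and 35.9 CPM, 3.67-fold higher in model (3.42 to 3.94) and 2.75-fold in AKBA (2.56 to 2.96). It had the largest log2 ratio of the 60 in model against sham.

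Sema3a, the prototype repellent of sensory axons, went the other way at 9.17, 3.96 and 5.34 CPM. It was 2.32-fold lower in model than in sham (2.04 to 2.64) and 1.72-fold lower in AKBA (1.53 to 1.93), and only the first passed the threshold. Its transcript rows held 0, 203 and 481 counts against 680, 354 and 481 in the gene row, so that the direction turned when transcripts were summed. Sema3e, which binds plexin-D1 without a neuropilin, stood at 9.91, 6.96 and 16.8 CPM and was 2.41-fold higher in AKBA than in model (2.20 to 2.65). Sham lay between the 2 crushed libraries for this gene, and the call was lost with a pseudocount of 5 CPM. Sema3c, a neuropilin ligand with a role in heart outflow development, at 482, 369.6 and 309 CPM, and its close relative Sema3d, at 104, 86.6 and 81.8 CPM, were below sham in both crushed libraries by less than 2-fold. Sema3f, another neuropilin-2 ligand, stood at 30.9, 47.6 and 39.7 CPM. The family therefore split, with 3 of 7 above 0 in model against sham, and its median was 0.44 below that of all genes in that comparison and 0.19 above it in AKBA against sham.

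Semaphorins of class 4 to 7 are membrane-bound. Here 5 of 13 were at least 2-fold higher in model than in sham (38.5%, against 4.52% of all genes). None was lower, where 1.31% of all genes were. In that comparison 11 lay above the median of all genes, and the median log2 ratio was 0.76 above that of all genes. Sema4c, the ligand of plexin-B2, stood at 34.7, 71.3 and 84.5 CPM, 2.05-fold higher in model (1.96 to 2.15) and 2.43-fold higher in AKBA (2.33 to 2.55). Sema4f, described on Schwann cells in their contact with axons, had 121, 385 and 520 counts, or 1.63, 4.30 and 5.77 CPM. That was 2.64-fold higher in model (2.14 to 3.26) and 3.54-fold higher in AKBA (2.90 to 4.35). Sema6c, a plexin-A ligand, had 815, 2213 and 2577 counts, or 10.99, 24.7 and 28.6 CPM, a fold of 2.25 in model and 2.60 in AKBA. For these 3 genes sham was lowest and AKBA highest in the gene rows. The transcript rows of Sema6c held 339, 1614 and 1004 counts, or 41.6%, 72.9% and 39.0% of its gene row, with model highest. The model calls of Sema4c, Sema4f and Sema6c were lost with TMM, upper quartile and median-of-ratios scaling.

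Sema7a is held to the membrane by a lipid anchor and binds plexin-C1 and beta-1 integrins. It stood at 14.2, 38.6 and 37.5 CPM, 2.72-fold higher in model (2.53 to 2.91) and 2.64-fold higher in AKBA (2.46 to 2.83) than in sham, and the interval of AKBA against model held 1 (0.927 to 1.02). Sema4g, at 14.5, 36.4 and 26.7 CPM, passed 2-fold in model (2.51-fold, 2.35 to 2.70) and not in AKBA (1.84-fold, 1.72 to 1.98). Sema6b, a plexin-A ligand as well, at 4.96, 10.4 and 14.4 CPM, passed in AKBA (2.90-fold, 2.58 to 3.27), and its log2 ratio of 0.94 in model fell short of the threshold. For Sema4g and Sema6b alike, both crushed libraries lay on the same side of sham.

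Sema4d, the ligand of plexin-B1, which is also found on lymphocytes, differed between the crushed libraries. It stood at 4.18, 3.78 and 8.99 CPM, 2.38-fold higher in AKBA than in model (2.09 to 2.71), while model against sham gave an interval that held 1 (0.772 to 1.06). The call was lost with a pseudocount of 5 CPM. Sema5a, which binds plexin-B3, took the most counts of the class, with 28960, 68144 and 46073. At 390.4, 761 and 512 CPM it was just outside the threshold in model (1.95-fold, 1.92 to 1.98; log2 ratio 0.96). The other members, Sema4a, Sema4b, Sema5b, Sema6a and Sema6d, had log2 ratios between 0.09 and 0.38 in model against sham.

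**Figure D2:**
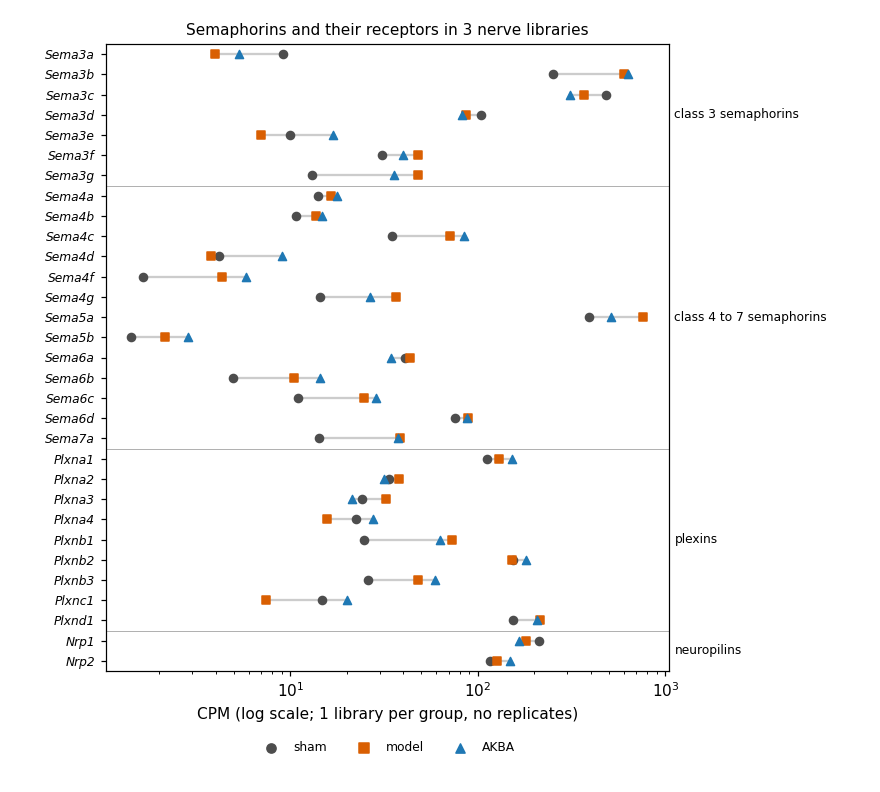
CPM on a log axis of the 31 semaphorins, plexins and neuropilins past the filter, in the sham (grey circle), model (orange square) and AKBA (blue triangle) libraries, 1 library per group with no error bar. Sema3b, Sema7a and Plxnb1 have both crushed libraries far to the right of sham, Sema3a and Plxnc1 have model at the left, and the neuropilins lie close together.

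Plexins are the signalling receptors of semaphorins and carry a GTPase-activating domain. Of 9, 1 was called higher in model and 2 in AKBA against sham, where 4.52% and 5.83% of all genes were. Plxnb1, the receptor of Sema4d, stood at 24.7, 72.9 and 63.1 CPM, 2.96-fold higher in model (2.81 to 3.12) and 2.56-fold higher in AKBA (2.43 to 2.70). Its transcript rows held 18.4%, 21.3% and 56.7% of the gene row. Summed transcripts gave a log2 ratio of 1.15 in AKBA against model, where the gene row gave -0.20. Plxnb3, the receptor of Sema5a, stood at 25.8, 47.9 and 59.4 CPM and passed the threshold in AKBA against sham (2.30-fold, 2.18 to 2.43). Plxnb2, the receptor of Sema4c, was at 153, 152 and 180.5 CPM. Its transcript rows held 2062, 10741 and 12417 counts, which were 18.1%, 78.7% and 76.4% of the gene row, so summed transcripts were past 2-fold over sham in both crushed libraries where the gene row was not. RefSeq also names a Plxnb2 pseudogene, and whether reads were divided between the copies is not stated in the sources used here.

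Plxnc1, the receptor of Sema7a that is found on myeloid cells, stood at 14.7, 7.44 and 20.0 CPM. It was 2.69-fold higher in AKBA than in model (2.46 to 2.94), and model was the lowest library. Model against sham was called lower with TMM, upper quartile and median-of-ratios scaling. The 12 macrophage markers, none at 0, did not share one order. Gpnmb stood at 527, 47.0 and 1102 CPM and Lyz2 at 1039, 387 and 1196 CPM, both lowest in model, and the list summed to 2677, 1651 and 3284 CPM. Without this pair the other 10 summed to 1111, 1217 and 987 CPM, highest in model and lowest in AKBA. In all, 5 of the 12 were lowest in model. Set against model, AKBA had 4 markers past 2-fold upward and 1 downward (2.69% and 1.37% of all genes). In model against sham 7 of 12 were above 0. The marker list's part in the Plxnc1 and Sema4d ratios was not tested.

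Plexin-A receptors, plexin-D1 and the neuropilins stayed under 2-fold. Plxna1 stood at 112, 129 and 153 CPM, Plxna2 at 33.8, 38.1 and 31.5 CPM, Plxna3 at 24.2, 32.4 and 21.2 CPM and Plxna4 at 22.4, 15.7 and 27.6 CPM. Plxnd1, an endothelial receptor of Sema3e that took the most plexin counts, stood at 153, 214 and 207 CPM. Nrp1, co-receptor of Sema3a and of vascular endothelial growth factor, stood at 212, 179.9 and 166 CPM, and Nrp2 at 117, 127 and 148 CPM. The 7 genes did not share an order of the libraries.

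Ephrins are contact signals, lipid-anchored in the A class and transmembrane in the B class. Of the 5 ephrins past the filter, 1 was called in any comparison, where 11.7% of all genes were. Efna5, an A-ephrin that repels axons through EphA receptors, stood at 14.4, 10.3 and 5.48 CPM. It was 2.62-fold lower in AKBA than in sham (2.35 to 2.92) and 1.88-fold lower in AKBA than in model (1.69 to 2.10), so the order was sham, model, AKBA. The call against sham was lost with a pseudocount of 5 CPM. Efna1 ran in the opposite order at 8.87, 11.4 and 15.2 CPM. Efnb1, the B-ephrin with the most counts, stood at 51.5, 75.5 and 58.1 CPM, and Efnb2, a marker of arteries, at 10.4, 11.5 and 11.9 CPM.

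EphA receptors went both ways. Epha2, an Eph kinase also common in epithelia, stood at 12.8, 34.5 and 32.2 CPM, 2.70-fold higher in model (2.51 to 2.90) and 2.52-fold higher in AKBA (2.34 to 2.71). Epha4, which binds ephrins of both classes, stood at 8.25, 17.5 and 12.8 CPM and lay just inside the threshold in model (2.12-fold, 1.93 to 2.34). That call was lost with TMM, upper quartile and median-of-ratios scaling. Epha3, a receptor of ephrin-A5, was lower in both crushed libraries at 26.5, 14.4 and 18.1 CPM, by 1.84-fold in model (1.72 to 1.98), and was called lower there under the same 3 scalings.

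EphB receptors bind B-ephrins. Ephb6, whose kinase domain lacks activity, stood at 19.9, 48.7 and 42.9 CPM, 2.44-fold higher in model (2.30 to 2.59) and 2.15-fold higher in AKBA (2.03 to 2.29), the latter not past 2-fold with TMM, upper quartile or median-of-ratios scaling. Ephb1 had 183, 472 and 488 counts, or 2.47, 5.27 and 5.42 CPM, with log2 ratios of (CPM + 1) of 0.86 and 0.89 against sham. Ephb2, reported on Schwann cells that meet ephrin-B on fibroblasts after nerve injury, stood at 22.3, 17.6 and 16.2 CPM. Sham was therefore lowest for Ephb1 and Ephb6 and highest for Ephb2. Ephb4, a receptor of veins, took the most counts of the family, at 48.4, 73.4 and 75.0 CPM. Its transcript row held 2.79%, 20.2% and 1.66% of the gene row. The log2 ratio of AKBA against model was -2.82 there and 0.03 in the gene row.

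Slits are large secreted repellents. Slit2 stood at 83.7, 167 and 165 CPM and lay just outside the threshold in both crushed libraries, 1.99-fold (1.93 to 2.05) and 1.97-fold (1.91 to 2.03) above sham. Its transcript rows held 5307, 3174 and 14203 counts, which were 85.5%, 21.3% and 95.8% of the gene row. Summed transcripts were thus lower in model than in sham, so the model ratio of Slit2 is uncertain. Slit3 stood at 116, 132 and 104 CPM. Their main receptors differed in direction. Robo1 was lower in the crushed libraries at 12.4, 8.37 and 8.85 CPM, and Robo2 higher at 4.87, 8.44 and 7.96 CPM, neither by 2-fold.

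Robo4, the endothelial member of the receptor family, stood at 4.41, 15.2 and 10.2 CPM, 3.45-fold higher in model (3.06 to 3.91) and 2.31-fold higher in AKBA (2.04 to 2.63). Robo3, known from midline crossing in the hindbrain, had 36, 188 and 65 counts, or 0.485, 2.10 and 0.722 CPM, 4.33-fold higher in model than in sham (3.02 to 6.37). The Robo3 call and the AKBA call of Robo4 were lost with the 3 other scalings. In RefSeq the Robo3 and Robo4 genes share bases on opposite strands. The strand setting of the counting is not stated in the sources used here, so reads of the pair cannot be told apart in the shared part, and the Robo3 value is uncertain. The transcript that RefSeq places in Robo4 held 448, 1953 and 1382 counts, more than the 327, 1362 and 919 counts of the Robo4 gene row.

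Vessel markers were higher in the crushed libraries as well. The summed level of 15 endothelial markers was 928, 1486 and 1338 CPM, and none was at 0 in a library. In model against sham 5 of 15 were at least 2-fold higher (33.3%, against 4.52% of all genes) and 14 were above 0. Pecam1, a junction protein of endothelium, stood at 83.6, 160.3 and 137 CPM. The markers themselves ran from -0.62 (Vwf) to 1.63 (Cldn5) on the log2 scale in model against sham. Guidance genes known from vessels had varied folds in the same comparison. They were 1.40 for Plxnd1, 1.52 for Ephb4, 1.103 for Efnb2, 0.982 for Unc5b, 0.847 for Nrp1, 3.67 for Sema3g and 3.45 for Robo4. The part of vessel content in the Sema3g and Robo4 ratios was not tested.

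Netrins such as netrin-1 attract or repel axons depending on the receptor. Ntn1, the netrin with the most counts and a product of Schwann cells, stood at 35.4, 58.7 and 48.1 CPM, 1.66-fold higher in model (1.58 to 1.74). Ntn4, a basement membrane protein, stood at 47.9, 45.2 and 40.6 CPM. The lipid-anchored netrins Ntng1 (4.91, 6.56 and 6.72 CPM) and Ntng2 (20.7, 26.2 and 27.7 CPM) were modestly above sham. Ntn3 had 43, 84 and 138 counts, or 0.580, 0.938 and 1.53 CPM. None of the 5 netrins past the filter reached 2-fold on the ratio of (CPM + 1), which understates low genes such as Ntn3.

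Among the netrin receptors, Unc5b and Unc5c passed the filter and had nearly the same level in sham and model. Unc5c stood at 23.7, 23.2 and 21.5 CPM and Unc5b at 15.7, 15.4 and 13.0 CPM, and both intervals for model against sham held 1 (0.920 to 1.05 and 0.908 to 1.06). Dcc, the receptor of netrin attraction, had 40, 94 and 42 counts and did not pass the filter. Unc5d had 32, 109 and 15 counts, so that both of these genes had most counts in the model library.

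**Figure D3:**
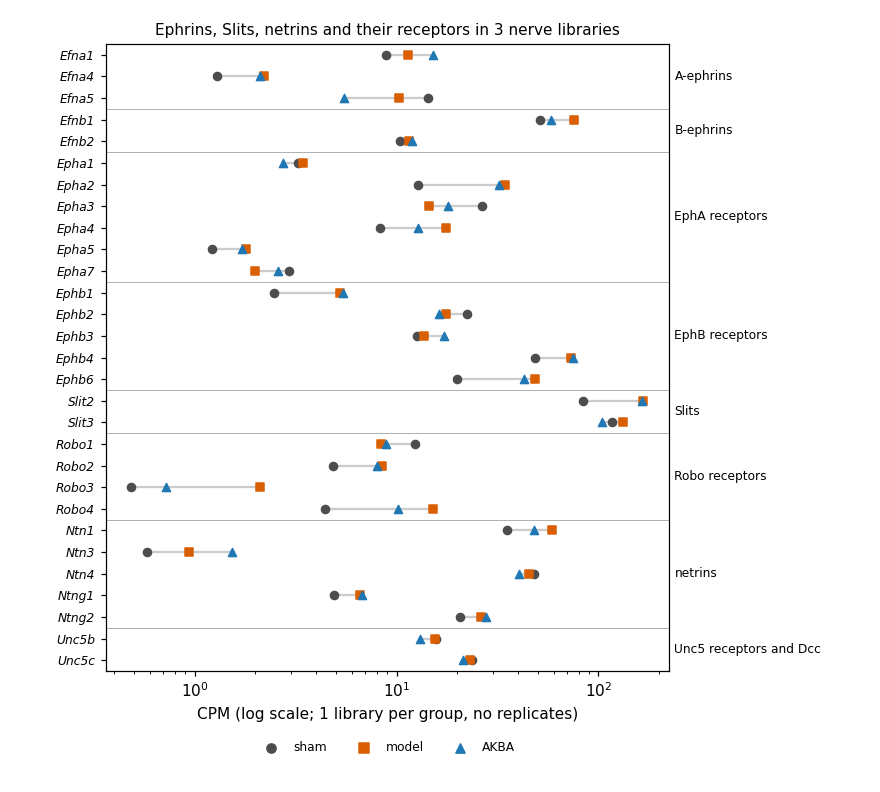
CPM on a log axis of the 29 ephrins, Eph receptors, Slits, Robo receptors, netrins and Unc5 receptors past the filter, in the sham (grey circle), model (orange square) and AKBA (blue triangle) libraries, 1 library per group with no error bar. Epha2, Ephb6 and Slit2 have both crushed libraries to the right of sham, Robo4 and Robo3 have model at the far right, and Unc5c values nearly coincide.

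Below the filter lay 11 guidance genes, whose highest counts were 45 (sham), 109 (model) and 131 (AKBA). They were Efna2, Efna3, Efnb3, Epha6, Epha8, Epha10, Slit1, Ntn5, Dcc, Unc5a and Unc5d. Epha8 had 0 counts in each library, which allows levels of up to 0.0404 (sham), 0.0335 (model) and 0.0333 CPM (AKBA). Unc5a, a netrin repulsion receptor, had 28, 0 and 122 counts. Its gene shares bases in RefSeq with Hk3, a hexokinase gene of white blood cells on the opposite strand, which had 429, 46 and 2113 counts in the same order. Both had the fewest counts in model and the most in AKBA, and without the strand setting their reads cannot be told apart. Since 21 genes of the table had 0 counts in a library and at least 10 CPM in another, a 0 is not read as absence of the transcript.

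Transcript rows added detail for the genes with several. The 155 transcripts that RefSeq accessions place in these genes gave the exact gene count in all libraries for 34 of the 71. Both Sema3b transcripts shared the direction of the gene, the reference form NM_001079942.1 at 22.9, 58.3 and 71.3 CPM and XM_017595747.1 at 173, 367 and 414 CPM. In Efna5 the main form XM_006245593.3 was at 13.6, 9.26 and 5.25 CPM. Sema4c had 7 transcripts, of which XM_008766995.2 stood at 16.1, 28.7 and 40.9 CPM and XM_006244758.3 at 3.87, 19.9 and 10.6 CPM, while XM_017596339.1 was lower than sham in both crushed libraries at 3.96, 2.47 and 2.80 CPM.

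For other genes the counts lay in different forms by library. Epha7 counts lay in XM_006237962.3 in sham and model (183, 166 and 0 counts) and in XM_006237963.3 in AKBA (0, 0 and 225). Robo2 counts lay likewise in XM_017598079.1 (311, 574 and 0) or in NM_032106.2 (0, 0 and 475). The Slit2 form XM_017599277.1 stood at 64.6, 22.9 and 149.7 CPM although the gene had nearly equal levels in both crushed libraries. How reads were divided between forms is not stated in the sources used here, so these values are no measure of isoform use.

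The partners and effectors of these receptors passed 2-fold at shares near those of all genes. Of 71 listed genes 70 were in the table and 66 passed the filter, 2 of them (3.03%, against 4.52% of all genes) at least 2-fold higher in model than in sham, 3 (4.55%, against 5.83%) in AKBA than in sham, and 0 (against 2.69%) in AKBA than in model, with 0 lower in the 3 comparisons. The pair in model was L1cam, an adhesion molecule and co-receptor for Sema3a, at 26.1, 64.5 and 41.9 CPM, and Dpysl5, a collapsin response mediator, at 0.701, 3.24 and 1.73 CPM. In AKBA they were Arhgef28, a guanine nucleotide exchange factor, at 35.4, 50.0 and 77.5 CPM, Kalrn, an exchange factor downstream of EphB receptors, at 22.1, 36.5 and 49.3 CPM, and Chl1, an adhesion molecule that associates with neuropilin-1, at 66.6, 98.8 and 138 CPM. The median log2 ratio of the list was 0.03 above that of all genes in model against sham and 0.01 below it in AKBA against sham.

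**Figure D4:**
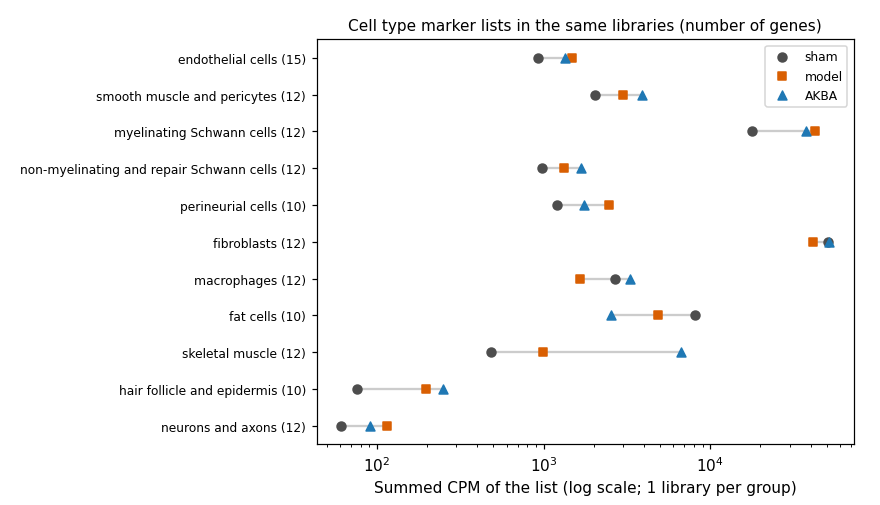
Summed CPM on a log axis of 11 cell type marker lists in the sham (grey circle), model (orange square) and AKBA (blue triangle) libraries, with the number of genes per list in brackets and no replicates. Myelinating Schwann cell and endothelial sums are higher in both crushed libraries, although Mbp and Vwf of these lists are lower there. The skeletal muscle sum is highest in AKBA. The macrophage sum, lowest in model, rests on Gpnmb and Lyz2. Without the 2 highest genes the fat cell sums of sham and model nearly coincide, with Cfd in the sum (555, 1031 and 595 CPM). Cfd was the only 1 of the 10 fat cell genes above sham in model.

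The remaining marker lists set the makeup of the libraries beside these results. Non-myelinating and repair Schwann cell genes summed to 981, 1336 and 1686 CPM, and to 132, 259 and 270 CPM without Scn7a and Jun. Smooth muscle and pericyte genes summed to 2025, 2981 and 3917 CPM, and to 982, 1438 and 1579 CPM without Myh11 and Tagln. In both lists model and AKBA then lay nearer each other. Perineurial genes, among them Ntng1, summed to 1199, 2466 and 1755 CPM, and to 526, 822 and 598 CPM without Itgb4 and Sfrp5. Fibroblast genes summed to 51027, 41301 and 51720.3 CPM, and to 13565, 10628 and 11627 CPM without Col3a1 and Col1a1. In AKBA against sham their median log2 ratio was -0.43, with 2 of 11 above 0. Neuron and axon genes summed to 61.1, 116 and 90.7 CPM, and to 36.2, 59.9 and 60.3 CPM without Uchl1 and Scn9a. Hair follicle and epidermis genes summed to 76.01, 198 and 248 CPM. Most of the last sum came from Fa2h and Lgr5, and the other 8 genes summed to 7.68, 7.83 and 113 CPM, nearly equal in sham and model and higher in AKBA. In the myelinating Schwann cell list 8 of 12 were at least 2-fold higher in model than in sham (66.7%, against 4.52% of all genes). Mbp of that list went the other way, at 3012, 1553 and 1335 CPM. Which of these cells held the guidance transcripts was not tested.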

How the data were processed

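Biotin probes were used to deplete ribosomal RNA, and fragments were 100 to 300 bp, per the labels' protocols. HISAT2, StringTie, bcl2fastq 2.0, limma, DESeq2 and the mouse build mm10 appear in the submitters' processing notes without roles, while the rows are rat genes, so the alignment genome is uncertain. The authors deposited raw, unscaled counts for genes and for transcripts. The model column carried 2 extra text characters after each deposited count (entered as unit other), which were removed. Columns were assigned to groups from the series' key. The lncRNA tables were not used.

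CPM was the count over the gene table total. Ratios were log2 of (CPM + 1) over (CPM + 1), computed where the mean reached 1 CPM, and 2-fold was the call. Ratio intervals were exact Clopper-Pearson at 95% (scipy 1.17.1), and a count of 0 allows 3 counts. Both describe counting error alone, and treat each read as a separate molecule. Reads copied by PCR are not separate molecules, so the intervals may be too narrow. Scalings used edgeR 4.0.16 and DESeq2 1.42.0 with R 4.3.3. With 1 library per group no test was possible. The steps were tested on simulated data. All 71 symbols matched RefSeq GRCr8, used for names, overlaps, transcripts (32086 of 55767 placed) and promoters (56 of 71 genes).

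Named genes were those past 2-fold in any comparison and the member of each family with the highest mean CPM, with others given by value. Members, marker lists and partner list were chosen with earlier results of these data known. Alternatives were other pseudocounts, scalings, totals, filters and sums of transcripts.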

Additional observations from a re-analysis of the deposited data

How the results depend on the processing

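Counts of guidance genes past 2-fold were recomputed under 10 alternatives, and the medians relative to all genes kept their sign in each, at 0.06 to 0.19 for model against sham, 0.20 to 0.28 for AKBA against sham and 0.01 to 0.04 for AKBA against model. For model against sham, 8 were higher (13 as reported) with TMM, upper quartile and median-of-ratios scaling and with a pseudocount of 5 CPM. The number lower (1 as reported) was 3 with those 3 scalings, 2 with the total without ribosomal RNA and mitochondrial rows, and 0 with a pseudocount of 5 CPM or sums of transcripts. For AKBA against model, 1 was higher (3 as reported) with a pseudocount of 5 CPM. There 1 was lower (0 as reported) with a pseudocount of 0.1 CPM, namely Robo3, or with sums of transcripts, namely Ephb4. Sums of transcripts also added Plxnb1 and Slit2 as higher in this comparison. Plxnc1 had 0 transcripts placed, so it could not be called there. For AKBA against sham, 0 were lower (1 as reported) with a pseudocount of 5 CPM. Sema3a changed sign in model against sham with sums of transcripts (1.71 on the log2 scale), where 0 of its sham counts were placed in a transcript. Slit2, at 0.99 in the gene row, also turned lower in model than in sham there, with 21.3% of its model counts placed. For AKBA against model the calls lost with a pseudocount of 5 CPM were Sema3e and Sema4d, for model against sham Epha4, Robo3, Sema3a, Sema4c, Sema4f and Sema6c, and for AKBA against sham Efna5, Ephb6, Robo4, Sema4f and Sema6b. The genes higher in both crushed libraries than in sham (10 as reported) were 5 with TMM, upper quartile and median-of-ratios scaling and with a pseudocount of 5 CPM, and 7 to 13 otherwise, a count added after seeing the data, as were the marker sums without the 2 highest genes. Sema3b, Sema3g, Sema7a, Plxnb1 and Epha2 kept both calls over sham under all 10. The members above 0 in model against sham were 43 of 60 as reported and 34 with TMM scaling. No paired analysis was possible because each group has 1 library. Depth limits genes below about 1 CPM, where a pseudocount of 1 CPM understates ratios.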
